A study of Drosophila melanogaster with 13 samples.

Results

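The comparison described here is between Pita with its own dimerisation domain and Pita with that domain exchanged for a human one, both pulled down through a FLAG tag. Its members are the peaks of 2 deposited lists, 1792 peaks for the line Pitawt and 1243 for the line PitaZ276, which together make 3035 of the 6204 peaks in the 6 lists of the series. A Pitawt peak was counted as kept when it overlapped a PitaZ276 peak by at least 1 bp, and as lost when it met none. A PitaZ276 peak that met no Pitawt peak is called swap-only. By this rule 1112 Pitawt peaks were kept and 680 were lost, and 138 PitaZ276 peaks were swap-only.

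Chromatin came from whole adult Drosophila melanogaster aged 2 to 3 days and was fixed in 1% formaldehyde for 15 min. The labels give the genotypes as pita1attP Pitawt and pita1attP PitaZ276, and a further line, y1w1118; pita1attP PitadeltaZ, is called PitaΔZ here and carries Pita without the domain. Each line was assayed with a rabbit FLAG antibody and a rabbit Pita antibody in 2 libraries each, and the 13 libraries include 1 preimmune control made from Pitawt flies. Since the material was the whole fly, a peak is a sum over all tissues, and a site bound in few cells and a site bound weakly in many cannot be told apart.

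Pita is a DNA-binding protein with a cluster of C2H2 zinc fingers, and it acts as an architectural protein at insulators, the elements that limit contacts between enhancers and promoters. Its N-terminal zinc finger-associated domain, the ZAD, lets molecules of the protein pair with each other, while the zinc fingers read the DNA. ZFP276 is a human zinc-finger protein with a ZAD-like domain. The comparison asks which sites of wild-type Pita were still called when the fingers were joined to that domain.

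Each list had been joined from a pair of peak lists, so there is 1 list per line and antibody, no spread between replicates and no test between lines. The range in brackets after a share is its exact 95% Clopper-Pearson interval and covers counting error alone. The fold enrichment, the −log10 p and the −log10 of the irreproducible discovery rate (IDR) are the authors' values for a peak within its own list, and ranks are by −log10 p within a list. The depth of the libraries is unknown, and the lists were cut at different levels, with the lowest −log10 IDR at 2.00 in Pitawt FLAG and at 1.31 in PitaZ276 FLAG. A lost peak is therefore a peak not called in the other list, which is not a measurement of absent binding.

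With the ZFP276 domain, most strong wild-type sites were called and most weak ones were not. Of the 1792 Pitawt FLAG peaks, 62.1% (59.8 to 64.3) were kept, and of the 1243 PitaZ276 FLAG peaks, 88.9% (87.0 to 90.6) met a Pitawt peak. The strongest 119 Pitawt peaks were all kept, and the strongest 313 PitaZ276 peaks all met a Pitawt peak. Of the lost peaks, 93 were among ranks 1 to 896 of the Pitawt list and 587 were in the remainder. In 10 bins of rank the kept share was 99.4% in bin 1, 85.5% in bin 4, 61.5% in bin 6, 27.2% in bin 8 and 15.6% (10.7 to 21.8) in bin 10. The share of PitaZ276 peaks that met a Pitawt peak stayed at 99.2% or above through bin 5 and was 54.0% (44.9 to 63.0) in bin 10. Swap-only peaks numbered 2 in the stronger 621 PitaZ276 peaks and 136 in the rest.

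**Figure D1:**
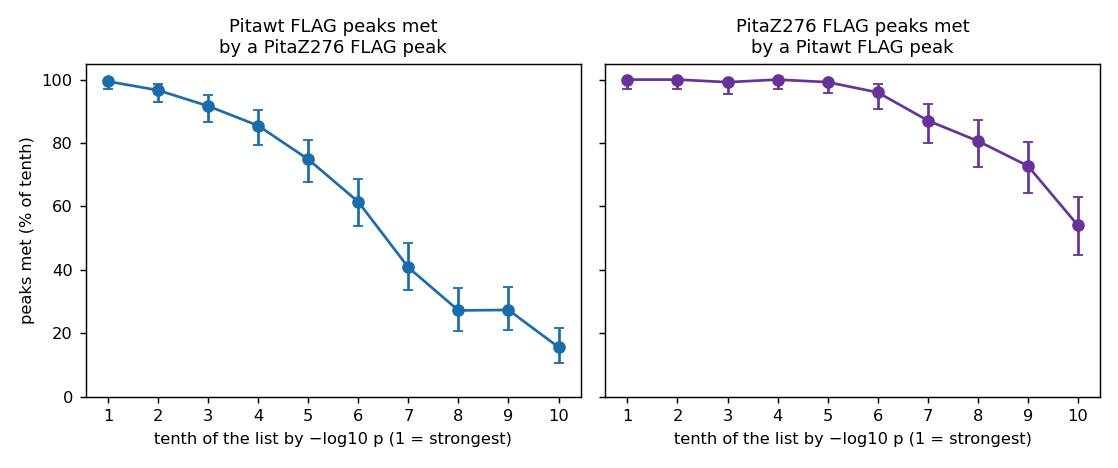
Share of peaks met by the other FLAG list (y axis, % of bin) in 10 bins of rank by −log10 p (x axis, 1 = strongest), for Pitawt FLAG on the left and PitaZ276 FLAG on the right; bars are exact 95% binomial intervals. The Pitawt share goes from 99.4% in bin 1 to 15.6% in bin 10, while the PitaZ276 share is at or above 96.0% through bin 6.

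The sites at the head of the wild-type list were also near the head of the swapped-domain list. Since the lists differ in length, their ranks describe each list alone. At Rala, which encodes a small GTPase, the peak on X from 3719249 to 3720938 (dm6) had rank 1 in both lists, with folds of 219 in Pitawt and 127 in PitaZ276. At ATPsynC, a gene for a subunit of ATP synthase, the peak had rank 3 in Pitawt and rank 2 in PitaZ276. Men-b, a malic enzyme gene, had ranks 8 and 4. The summits of these 3 sites lay 73 to 172 bp from the gene end.

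The other leading sites had larger rank numbers in the PitaZ276 list by the first joined list. The site near CR46447, inside the nuclear receptor gene Hr4, had rank 4 in Pitawt and rank 21 in PitaZ276. The gene fzr, whose product activates the anaphase-promoting complex, had a site with ranks 6 and 44. CG34130 had ranks 2 and 8, and CG11905 had ranks 5 and 10. The site at cindr, which encodes an adaptor of the actin cytoskeleton, had ranks 7 and 15. The second joined list gave other places among sites where a single peak of each line met the other. Those places in Pitawt and PitaZ276 were 2 and 1 for CG34130, 6 and 5 for fzr, and 4 and 6 for CR46447. They were 5 and 21 for CG11905 and 7 and 17 for cindr. All 8 of these strongest kept sites were also called with the Pita antibody in Pitawt and in PitaZ276, beside 77.6% and 42.6% of all kept peaks.

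Among sites present in both lists, position changed little and order moderately. In 1068 pairs a Pitawt peak met a single PitaZ276 peak and no other peak met either. Their summits lay a median of 22 bp apart, and 946 pairs (88.6%) had summits within 100 bp. The PitaZ276 peak was the wider in 671 pairs (62.8%), with a median width ratio of 1.07 by the first joined list and 0.994 by the second. Across the 1068 pairs the −log10 p values had a Spearman rho of 0.829, and 0.799 for the values of the second joined list. That rho is a description of sites that share libraries and a preimmune control, and it carries no p. Of the 100 strongest pairs by each list, 79 were the same. Outside the pairs, 10 Pitawt peaks met 2 PitaZ276 peaks each and 17 PitaZ276 peaks met 2 Pitawt peaks each.

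The order of the 1068 pairs, ranked anew within them, was used to find the sites whose place differed most. The largest shift down the order was at a site inside zormin, a gene for a muscle protein related to titin, nearest to asRNA:CR45802 (3L, 2127515 to 2129266). It went from place 218 to place 1031, with folds of 18.5 in Pitawt and 2.51 in PitaZ276, and its width went from 1752 to 488 bp. A site inside csw, the gene of an SHP2-type tyrosine phosphatase, went from 309 to 1063, with folds of 33.1 and 3.50. Another kept site inside csw (X, 2111470 to 2113328) had places 180 and 243, with folds of 46.2 and 25.3. The overlapping peaks at the former csw site had summits 779 bp apart, and those at Tti1 254 bp. The folds there thus belong to different positions and may not describe the same site. Sites at Tti1 (243 to 979), at sstn inside Plp, which encodes a centrosomal pericentrin-like protein (344 to 1049), and at snoRNA:Psi28S-3385b inside kra (322 to 1020) shifted by similar amounts. All 5 sites with the largest shifts down were called with the Pita antibody in Pitawt, and none was called with it in PitaZ276 or in either PitaΔZ list. Over all kept peaks the shares were 77.6% in Pitawt Pita, 42.6% in PitaZ276 Pita and 68.1% in at least 1 PitaΔZ list. In Pitawt Pita, 100% of kept peaks were called at Pitawt FLAG ranks 180 to 358 and 99.4% at ranks 359 to 538. The Pitawt Pita call thus did not set these 5 sites apart. Their PitaZ276 FLAG ranks were 1079 to 1227. Of PitaZ276 peaks that met a Pitawt peak, 16.5% at ranks 995 to 1119 met at least 1 PitaΔZ list. At ranks 1120 to 1243 the share was 5.97%, so few peaks of like PitaZ276 rank had such a call. The 5 peaks counted as kept under the overlap rule, although their PitaZ276 folds were at most 3.99.

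The sites with the largest shifts up the order were called in PitaΔZ, where most shared peaks of like PitaZ276 rank were called too. A site inside CG42671, nearest to asRNA:CR46050, went from place 893 to 382, with folds of 6.38 in Pitawt and 11.5 in PitaZ276. The site at His3.3B, which encodes the replacement histone H3.3, went from 947 to 484, with folds of 7.90 and 12.2 at summits 315 bp apart. That at caps, a gene for a leucine-rich repeat adhesion protein, went from 799 to 339, with folds of 11.7 and 20.7. A site inside Eip75B, an ecdysone-induced nuclear receptor gene, went from 786 to 369. Another, between genes and 27646 bp from the closest gene end (CG41378), went from 1033 to 616. All 5 were called in both PitaΔZ lists. Their PitaZ276 FLAG ranks were 349 to 635. Of PitaZ276 peaks that met a Pitawt peak, 98.4% at ranks 250 to 373 met at least 1 PitaΔZ list. That share was 92.7% at ranks 374 to 497 and 63.9% at ranks 623 to 746. With the Pita antibody in Pitawt, only the site at caps was called. Over all kept peaks, 59.6% met PitaΔZ FLAG, 65.3% met PitaΔZ Pita and 77.6% met Pitawt Pita. The 5 sites had Pitawt FLAG ranks of 912 to 1561. The Pitawt Pita share of kept peaks was 60.0% at ranks 897 to 1075 and 4.08% at ranks 1435 to 1613. Each of the 10 sites shifted in the same direction by the −log10 p of the second joined list.

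**Figure D2:**
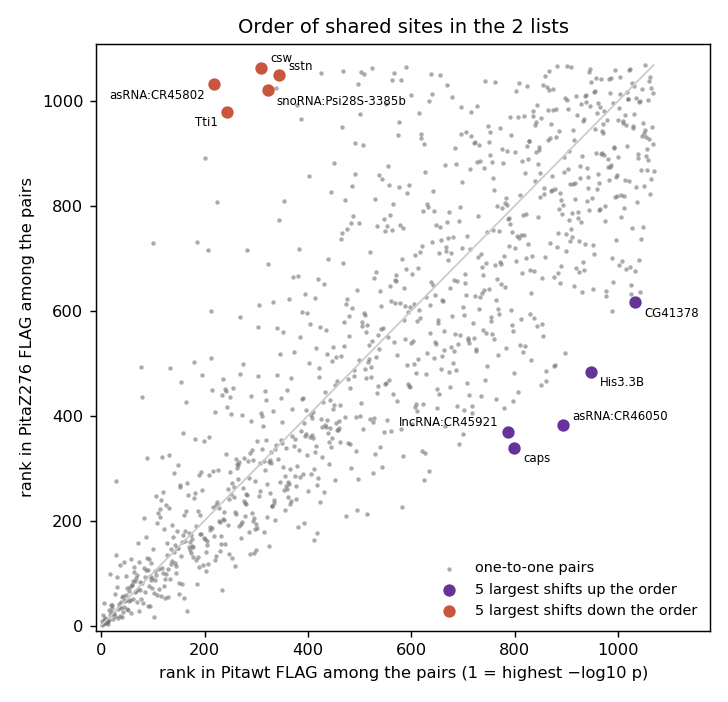
Place of each of 1068 paired sites among the pairs in Pitawt FLAG (x axis) and in PitaZ276 FLAG (y axis), where 1 is the highest −log10 p; the grey line marks equal places. The 5 largest shifts down the order (orange) lie at 218 to 344 on the x axis and 979 to 1063 on the y axis, and the 5 largest shifts up (purple) at 786 to 1033 and 339 to 616.

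Lost peaks were weaker and narrower than kept ones in the wild type. The median Pitawt fold was 17.1 for kept and 6.06 for lost peaks, the median width 1308.5 and 748.5 bp, and the median rank 582.5 and 1356. Within 5 bins of rank, lost peaks were the narrower in the stronger bins and close to kept peaks in the others. The median widths of kept and lost peaks were 1707 and 807 bp in bin 1, which held 7 lost peaks, and 1397 and 1228 bp in bin 2. They were 982.5 and 954.5 bp in bin 3, 765 and 770 bp in bin 4, and 569 and 604 bp in bin 5. Few lost peaks had a PitaZ276 FLAG peak close by. The nearest lay a median of 24454.5 bp away and was within 1 kb for 34 of 680 (5.00%).

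The strongest lost site was inside rho-6, a rhomboid family gene, at 2L from 12130587 to 12131309. It had a −log10 p of 735, a fold of 37.8 and rank 120 in Pitawt FLAG, and rank 71 with a fold of 48.1 in Pitawt Pita. A different PitaZ276 FLAG peak nearest to rho-6, with a −log10 p of 33.3, did meet a Pitawt peak. The lost rho-6 site was followed by a site between genes, nearest to lncRNA:CR45966 (rank 186 in Pitawt FLAG and 49 in Pitawt Pita). The next was a site inside FucTA, a fucosyltransferase gene, with ranks 277 and 177. A site inside GluClalpha, which encodes a glutamate-gated chloride channel, was nearest to Acsx1L and had ranks 286 and 72, and 1 near the checkpoint kinase gene grp had 290 and 239. None of these 5 sites was called in PitaZ276 Pita or in either PitaΔZ list.

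Further down were a site inside grh, the gene of the epidermal transcription factor Grainy head, nearest to asRNA:CR45270 (rank 316, fold 21.6), and 1 inside CenG1A, a gene for an Arf GTPase-activating protein (rank 351, fold 31.3). Then came sites inside Mlf, nearest to bug (rank 370, fold 17.1), inside haf, nearest to nis (rank 371, fold 23.5), and inside mr (rank 425, fold 18.7). Morula, the product of mr, is a subunit of the anaphase-promoting complex. The last of the 12 strongest lost sites were inside Srpk79D, an SR protein kinase gene (rank 437, fold 18.2), and inside the mucin-related gene Mur89F, 464 bp from the end of CG5292 (rank 444, fold 12.1). These 7 were also called with the Pita antibody in Pitawt, at ranks 163 to 334, and in no other list.

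The 12 strongest lost sites differed in place from kept sites of the same strength. Only 3 of the 12 summits (25.0%) were within 500 bp of a gene end, and 8 were deeper inside a gene. Of the 313 kept peaks at ranks 121 to 443, 227 (72.5%) were near a gene end and 63 were deeper inside a gene. All 12 lost and all 313 kept peaks were called with the Pita antibody in Pitawt. In at least 1 PitaΔZ list, 0 of the 12 and 284 of the 313 (90.7%) were called, and in PitaZ276 Pita 0 and 233. The 12 lost sites were chosen for being lost with FLAG, and the other lists share chromatin or the control with those that chose them, so these counts are descriptions. The gene table has no strand, and a gene end here can be either the start or the end of transcription.

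**Figure D3:**
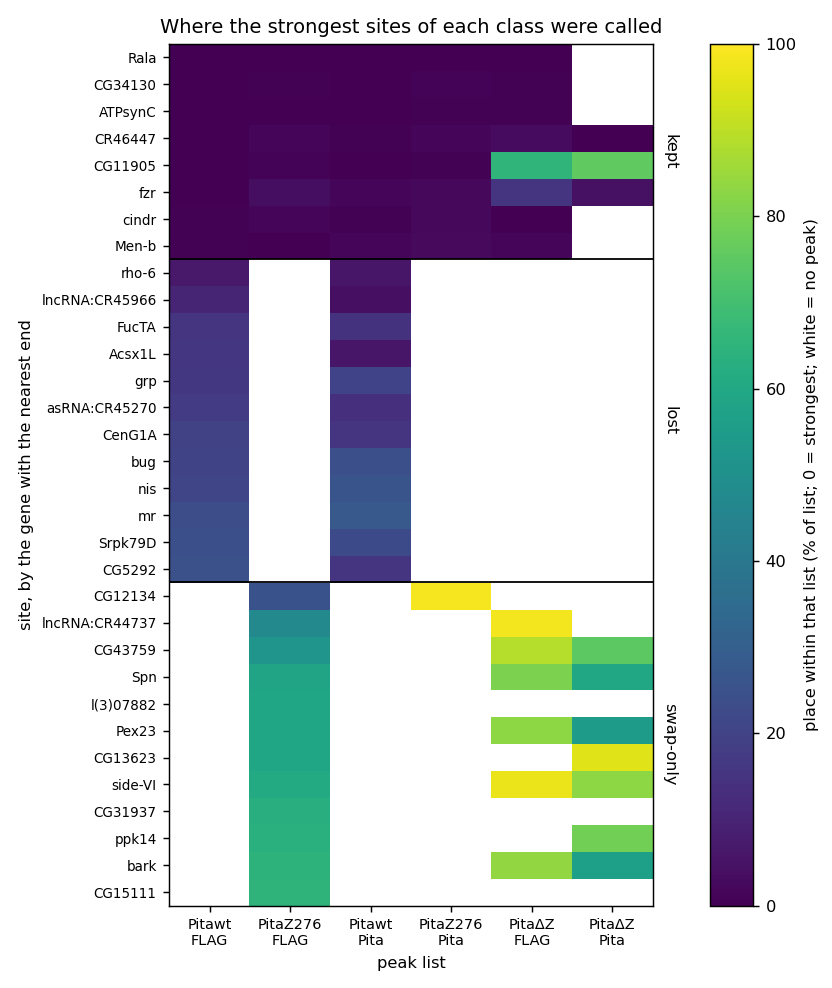
The 8 strongest kept, 12 strongest lost and 12 strongest swap-only sites (rows, each under the gene whose end is closest) in the 6 peak lists (columns); colour gives the place of the peak within that list in % of its length (0 = strongest), and white means no peak was called. The 12 lost sites are coloured in both Pitawt lists and white in the other 4, while 8 of the 12 swap-only sites are coloured in a PitaΔZ list.

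The same contrast in place held over all members. Near a gene end were 64.4% (61.5 to 67.2) of 1106 kept summits on the named chromosomes and 41.2% (37.5 to 45.0) of 679 lost ones. Deeper inside a gene were 26.4% of kept and 48.9% of lost summits, and 9.22% and 9.87% lay between genes. Ends of at least 2 genes within 500 bp, as at divergent gene pairs, were found for 33.6% (30.9 to 36.5) of kept and 17.8% (15.0 to 20.9) of lost summits. Since strong peaks were near gene ends more often, the shares were also taken within 5 bins of Pitawt rank. From the strongest to the weakest bin they were 73.9%, 63.6%, 58.4%, 55.4% and 57.1% for kept and 28.6% (2 of 7), 29.3%, 45.6%, 41.8% and 41.1% for lost peaks. The intervals were apart in bin 2, at 58.0 to 68.9% and 16.1 to 45.5%, and overlapped in the other 4 bins. With kept peaks weighted to the spread of lost peaks over 10 rank bins, the shares were 57.1% for kept and 41.2% for lost peaks.

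A Pita antibody call in Pitawt gave the reverse order at like rank. Of all 1792 Pitawt FLAG peaks, 63.8% met a Pitawt Pita peak, and the share was 77.6% (75.0 to 80.0) for kept and 41.2% (37.4 to 45.0) for lost peaks. Within rank bins 2 to 5 of 5, lost peaks had the higher share. In bin 3 it was 84.2% (76.2 to 90.4) for lost and 67.6% (61.4 to 73.5) for kept peaks. In bin 4 it was 43.9% (37.5 to 50.5) and 27.9% (20.1 to 36.7). In the other bins the intervals overlapped. Both classes had 100% in bin 1, lost and kept peaks had 100% (41 of 41) and 97.5% in bin 2, and they had 11.4% and 3.90% in bin 5. Weighted to the same ranks, 28.1% of kept and 41.2% of lost peaks had the Pita call, a difference of 13.1 percentage points. The higher share of kept peaks in the pooled figures was thus reversed in bins 3 and 4.

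**Figure D4:**
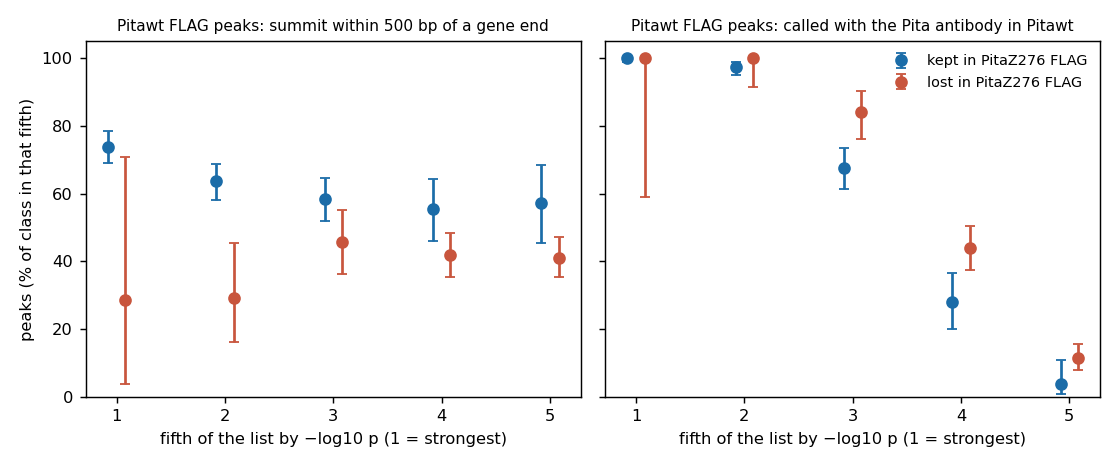
Kept (blue) and lost (orange) Pitawt FLAG peaks in 5 bins of Pitawt rank (x axis, 1 = strongest), as the % of each class with a summit within 500 bp of a gene end (left) or with a Pita antibody call in Pitawt (right); bars are exact 95% binomial intervals. Kept peaks are higher on the left in every bin, and lost peaks are higher on the right in bins 2 to 5, at 84.2% against 67.6% in bin 3.

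Calls in the remaining lists also differed between the classes, without matching for rank. Among all Pitawt FLAG peaks, 26.5% met a PitaZ276 Pita peak, 37.3% a PitaΔZ FLAG peak and 41.1% a PitaΔZ Pita peak. Kept peaks met them in 42.6%, 59.6% and 65.3% of cases. Of the 680 lost peaks, 1 met PitaZ276 Pita, 6 met PitaΔZ FLAG and 10 met PitaΔZ Pita. The lists of all lines were compared with the same Pitawt FLAG list, so these values stand side by side and are not a test of a shared loss.

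Lost peaks were spread over the genome. The kept share was 64.7% on 2L, 61.2% on 3L, 64.2% on 3R and 63.5% on X, with 55.8% (50.4 to 61.1) on 2R, whose interval overlapped those of the other large arms. On chromosome 4, 7 of 10 peaks were kept. The longest run of neighbouring Pitawt peaks that were all lost held 9 peaks on 2L from 9996800 to 10467487, with ranks of 877 to 1734. It included sites at SoYb, a Tudor-domain gene of the piRNA pathway, inside chico, the insulin receptor substrate gene, inside bsk, which encodes the kinase JNK, and at Cox10, GATAd and Sps2. Of the 9 peaks, 5 were called with the Pita antibody in Pitawt, beside 41.2% of all lost and 63.8% of all Pitawt FLAG peaks.

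Width alone did not mark a peak as kept. The widest lost peaks were at Rpt6R, a proteasome ATPase-related gene (3257 bp, fold 5.85, rank 1501), inside baz, the gene of the polarity protein Par-3 (3136 bp, rank 1230), and at CG4199 (3092 bp, rank 905). All 3 were called with the Pita antibody in Pitawt, beside 41.2% of all lost and 63.8% of all Pitawt FLAG peaks. In the reverse case, the last kept peaks of the list were at CG5854 (rank 1765), cbc (rank 1777) and Tango14 (rank 1785), with Pitawt folds of 3.51, 3.87 and 2.94. Their PitaZ276 ranks were 1143, 999 and 928. At CG5854 the PitaZ276 peak started at 23934799, beyond the Pitawt summit at 23934170, and was nearest to Gdh. The overlap there may not describe the same site.

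Swap-only peaks made up 11.1% (9.41 to 13.0) of the PitaZ276 FLAG list and were mostly weak. Their median fold was 3.98, their median width 623 bp and their median rank 1089 of 1243, and 77 of the 138 had a −log10 IDR of at least 2, the lowest value in the Pitawt list. Near a gene end were 39.9% (31.6 to 48.5), close to the lost peaks, and 49.3% lay deeper inside a gene. The nearest Pitawt FLAG peak was a median of 15559.5 bp away and within 1 kb for 27 peaks (19.6%). They were 9.40 to 13.8% of the PitaZ276 peaks on each large arm, and 0 of 7 on chromosome 4.

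The strongest swap-only peak was at CG12134 on 2R, from 9970784 to 9972704, with its summit 10 bp from the gene end. It had a fold of 19.9 and rank 314, and it was the only swap-only peak called with the Pita antibody in PitaZ276, at rank 486 of 492. Its summit lay 256 bp from an end of eIF3j, a translation initiation factor gene. The next were at lncRNA:CR44737 (fold 8.99, rank 586) and CG43759 (fold 10.3, rank 649). At Spn, the spinophilin gene, the fold was 8.58 (rank 728), and inside Pex23, a peroxisome biogenesis gene, it was 5.22 (rank 732). A kept site also lay inside Spn, nearest to CG32295, with folds of 90.8 in Pitawt and 60.0 in PitaZ276. Another PitaZ276 FLAG peak nearest to CG43759 met a Pitawt peak.

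The remaining strong swap-only sites had folds of 4.89 to 7.89. They were inside P5cr-2, a proline synthesis gene, at CG13623, CG31937, CG15111 and ppk14, a gene for a sodium channel of the pickpocket family, inside side-VI, an immunoglobulin-family gene, and inside bark, a septate junction gene. Of the 12 strongest, 8 had a summit near a gene end and 8 were called in a PitaΔZ list, while 0 were called with the Pita antibody in Pitawt. The widest swap-only peaks were at bark (3381 bp), Pex23 (2988 bp) and resilin, which encodes an elastic protein of the cuticle (2983 bp), and all 3 were called in both PitaΔZ lists. The last in the list were at Pex16, at KP78a inside pros, and inside UQCR-C1, with folds of 2.65, 3.01 and 2.72.

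Over the whole PitaZ276 FLAG list, 69.2% of peaks met Pitawt Pita, 38.1% met PitaZ276 Pita, 54.7% met PitaΔZ FLAG and 60.4% met PitaΔZ Pita. Of the 138 swap-only peaks, 3 met Pitawt Pita, 1 met PitaZ276 Pita, 19 met PitaΔZ FLAG and 27 met PitaΔZ Pita. In at least 1 PitaΔZ list, 30 of the 138 (21.7%, 15.2 to 29.6) were called, against 68.3% (65.5 to 71.1) of the shared peaks. At like rank the shares were closer. In bin 4 of 5 of the PitaZ276 list the shares were 30.0% (16.6 to 46.5) and 37.5% (30.9 to 44.5), and in bin 5 they were 14.3% (7.83 to 23.2) and 12.0% (7.40 to 18.1), with overlapping intervals.

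The lists joined for PitaZ276 FLAG differed from each other more than those joined for Pitawt FLAG. Across peaks, the −log10 p of the first and second joined list had a Spearman rho of 0.982 in Pitawt FLAG, with medians of 81.3 and 79.6, and of 0.896 in PitaZ276 FLAG, with medians of 66.6 and 179. The second value was more than 5 times the first for 0 Pitawt FLAG peaks, for 90 of 1105 shared PitaZ276 peaks (8.14%) and for 23 of 138 swap-only peaks (16.7%). In places a single wide peak of the second list was joined to 2 peaks of the first. Such reuse touched 65 shared peaks (5.88%) and 23 swap-only peaks (16.7%), and 7 kept and 7 lost peaks in Pitawt. For 21 of the 23 swap-only peaks, the other peak joined to the same second-list peak was 1 that met a Pitawt peak. Of the 23 swap-only peaks past a ratio of 5, 18 were of this kind.

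Single sites show what this does to a rank. The swap-only peak inside P5cr-2, on 3R from 17535529 to 17536897, had a −log10 p of 43.8 in the first joined list (rank 729) and of 1245 in the second (rank 60), where the joined peak was 2338 bp wide and also joined to a neighbour. At Obp28a, an odorant-binding protein gene, the values were 22.5 and 716, and the second-list peak of 2074 bp was again joined to 2 peaks. At the ribosomal protein gene RpS27 they were 13.5 and 245. The second value of such a peak therefore also belongs to its neighbour.

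**Figure D5:**
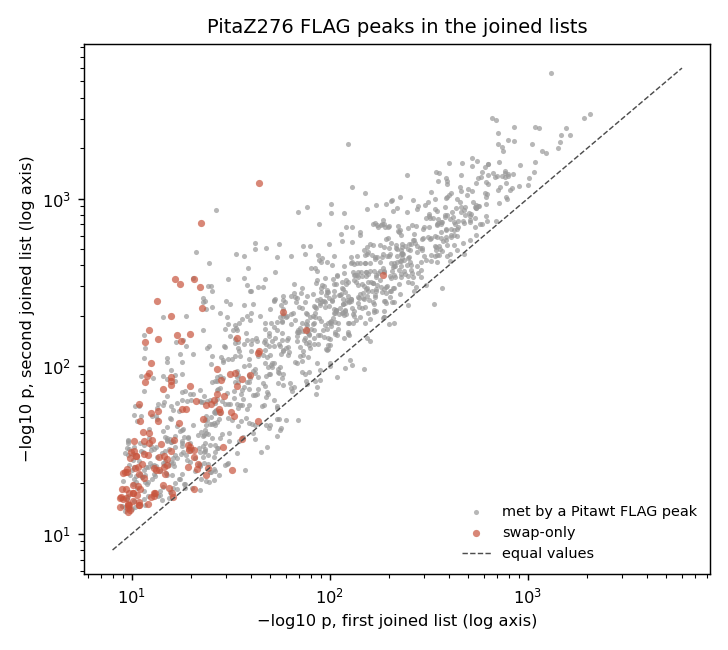
−log10 p of each PitaZ276 FLAG peak in the first (x axis) and second (y axis) of the joined lists, both on log axes, for peaks met by a Pitawt FLAG peak (grey) and swap-only peaks (orange); the dashed line marks equal values. Most points lie above the line, and the highest swap-only point, at 43.8 and 1245, is the peak inside P5cr-2.

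Gene groups were described by counting genes with a summit of each class within 500 bp of an end. Of 17684 genes, 1104 (6.24%) were reached by a kept, 412 (2.33%) by a lost and 82 (0.464%) by a swap-only summit, and 11 of the 1505 reached by Pitawt peaks were reached by both a kept and a lost one. Cytosolic ribosomal protein genes were reached by kept summits in 23 of 93 cases (24.7%), by lost ones in 2 and by swap-only ones in 2. The strongest kept were RpL22 (Pitawt fold 72.4, rank 35 in Pitawt and 37 in PitaZ276), RpS15Aa (79.2, ranks 64 and 107), RpL30 (49.6, ranks 75 and 28) and RpL23 (51.0, ranks 95 and 100). The lost ones were RpL37-1 (fold 7.33, rank 1331) and RpS14b (fold 7.87, rank 1040). RpS14b has a near-identical neighbouring copy, RpS14a, and whether reads were split between them was not tested. The swap-only ones were RpS27 (fold 4.14) and RpS18 (fold 2.77).

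Other groups of the protein synthesis and turnover machinery are small, and their shares stand beside the 6.24% of all genes reached by a kept and the 2.33% reached by a lost summit. Mitochondrial ribosomal protein genes had 7 kept (9.59%) and 1 lost of 73, with mRpL13 the strongest kept (fold 67.3, ranks 73 and 164) and mRpL18 lost (fold 4.99). By the second joined list, the mRpL13 site went from place 66 to 37 among the pairs. Translation initiation factor genes had 7 kept (15.9%), 1 lost and 1 swap-only of 44, namely eIF4G2 (fold 42.8) at the head of the kept, eIF3c lost (fold 9.28) and eIF3j swap-only. Proteasome genes had 5 kept (10.4%) and 4 lost (8.33%) of 48. The kept ones included Rpt4 (fold 28.5), a base ATPase, and Rpt3R, whose site is the one named above for Tti1. The lost ones were Rpn11, the deubiquitinating lid subunit (fold 5.87), Prosbeta2 (8.66), Prosbeta5 (6.89) and Rpt6R.

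The regulatory gene groups held 6 to 22 genes, so 1 gene moves a share by several percentage points and the counts are given as such. Origin recognition complex genes had Orc4 kept (fold 31.7, ranks 211 and 146) and Orc5 lost (fold 4.78) of 6. Of 13 JAK/STAT genes, Socs36E, an inhibitor of the pathway, was kept with a fold of 142 and ranks 14 and 3, and Su(var)2-10, the PIAS gene, was lost (fold 7.41). Of 22 Polycomb and trithorax genes, trx (fold 71.3, ranks 81 and 450) and Pc (fold 28.7, ranks 329 and 346) were kept and Pcl was lost (fold 6.32). None of the 8 Hox genes had a summit of any class within 500 bp of an end, a count that says little at a share of 6.24% over all genes. Kept sites lay deeper inside Hox genes. That inside Abd-B was 2522 bp from its end (fold 123, rank 21 in Pitawt and 42 in PitaZ276), and that inside pb was 1259 bp from its end (fold 38.8, ranks 260 and 449). Both were named after their values were seen. Of 21 insulator and architectural protein genes, BEAF-32 was kept (folds 9.97 in Pitawt and 10.0 in PitaZ276). The peak near an end of pita itself was lost, while a stronger peak deeper inside pita was kept.

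At pita on 2R, from 23548967 to 23554712, the Pitawt FLAG list had 3 peaks and the PitaZ276 FLAG list 1. The kept peak had its summit at 23550428 in Pitawt (fold 11.8, rank 538) and at 23550423 in PitaZ276 (fold 4.64, rank 802), and it was also called in Pitawt Pita and both PitaΔZ lists. The lost peaks had summits at 23554055 (fold 7.95, rank 978) and at 23554698 (fold 5.29, rank 1410), the latter 14 bp from the gene end. Both lost peaks were found in Pitawt FLAG alone. The genotypes name an attP insertion at pita, and its part in the peaks at this locus was not tested.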

How the data were processed

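ChIP-seq peaks of Pita in whole adult flies were taken from 6 deposited lists, 1 for each of 3 lines and 2 antibodies. Per the submitters' processing notes the authors used cutadapt, Bowtie2, Picard, bedtools, MACS2 and deepTools with the dm6 build; no source used here gives their versions. The lists have 20 columns in the layout of a joined pair of peak lists, per the file contents. The deposited values used were the authors' fold enrichment (a ratio) and the authors' −log10 p, −log10 q and −log10 IDR. Positions, summit and −log10 p, and so rank, equal those of the first joined list in every peak, and which library lies behind it is not given. The fold was taken as that of the same list, which was not checked. The labels do not say whether the 2 libraries of a list came from separate batches of flies, and no column of values was left unmapped (0 columns). The list names give the preimmune library as control.

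From these values overlaps of at least 1 bp, distances, ranks and shares with 95% Clopper-Pearson intervals were computed with scipy 1.17.1, pandas 2.3.3 and numpy 2.4.6 under Python 3.11.15, and figures with matplotlib 3.10.9. The code for overlaps and gene distances was tested on simulated data. Genes were placed with RefSeq coordinates on Release 6 (dm6), a table without strand or exons, so sites were placed by distance to either gene end (500 bp) in place of a transcription start. The table was limited to 2L, 2R, 3L, 3R, X and 4. To compare classes at like strength, peaks were put in 5 or 10 bins of Pitawt rank, and kept shares were weighted by the number of lost peaks per bin, a step chosen after seeing the data.

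Named sites were the 8 strongest kept, 12 strongest lost and 12 strongest swap-only peaks by −log10 p, the 5 largest rises and falls in order, the 3 widest lost and swap-only peaks, the 3 last kept and swap-only peaks, and up to 4 genes per class in 9 gene lists. A site carries the name of the gene whose end is closest, or of another gene that it lies inside or close to. The names mark sites, and a gene can also have sites of another class. The neighbouring lost peaks on 2L, the peaks at pita, Obp28a and the genes around named sites were chosen after their values were seen. Members and lists were chosen with earlier results of these data known. A planned description of sequence words was not run, as no promoter sequence was used here.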

Additional observations from a re-analysis of the deposited data

Results flagged for a closer look

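Calls in the PitaΔZ lists lay outside the comparison of Pitawt FLAG with PitaZ276 FLAG and were looked at for that reason. Of the 138 swap-only peaks, 30 (21.7%) were called in at least 1 PitaΔZ list, among them CG43759, Spn, Pex23, side-VI and bark with both antibodies. The share was 68.3% for shared PitaZ276 peaks as a whole, but at like rank it was 30.0% for swap-only and 37.5% for shared peaks in bin 4 of 5 and 14.3% and 12.0% in bin 5. Of the 680 lost Pitawt peaks, 10 (1.47%) were called in at least 1 PitaΔZ list, against 68.1% of kept peaks. These shares of lost and kept peaks were not matched for rank, and lost peaks were the weaker. Of all Pitawt FLAG peaks, 37.3% met PitaΔZ FLAG and 41.1% met PitaΔZ Pita.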

How the results depend on the processing

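Shares of kept Pitawt peaks and of PitaZ276 peaks met by Pitawt (62.1% and 88.9%) moved to 54.5% and 78.6% with 50% reciprocal overlap, 54.1% and 78.0% with summits within 100 bp, 57.3% and 93.0% with −log10 IDR of at least 2, 58.8% and 92.5% with −log10 q of at least 10, and 58.1% and 93.4% with a fold of at least 4. With equal list lengths they were 79.2% and 79.4%, or 78.7% and 78.9% with lengths cut by the second joined −log10 p, and a gap of at most 1000 bp gave 91.1% for the latter. Swap-only peaks, 138 as reported, numbered 266 and 273 under the stricter overlaps, 77, 85 and 70 under the IDR, q and fold thresholds, 256 and 262 at equal lengths, and 119 by second joined positions; lost peaks, 680 as reported, numbered 259 and 265 at equal lengths, where the Pitawt list loses its weakest peaks by construction. Near a gene end, windows of 200 and 1000 bp gave 43.3% and 75.4% of kept, 20.3% and 56.0% of lost and 18.1% and 56.5% of swap-only summits, and the swap-only share was 49.6% with 50% reciprocal overlap and 51.6% with summits within 100 bp. At like rank, the Pita call exceeded in lost peaks by 11.6 to 15.6 percentage points, and the gene-end share of lost minus kept ran from -17.8 to -8.71 points, over all settings tried. The second joined positions, the lengths by second joined p and all settings at like rank were chosen after seeing the data. Apart from the alternatives by construction, the cause of these moves was not tested. No paired analysis was possible because each list is a join of both libraries and gives no test, and for the same reason no library could be left out. Depth is unknown here, so no limit of detection can be given.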
